A study of Mus musculus with 4 samples.

Results

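The genes described here are 9 core components of the Hedgehog signalling pathway, out of 21938 protein-coding genes annotated in the mouse genome: Dhh, Ptch1, Smo, Gpr161, Kif7, Sufu, Gli1, Gli2 and Gli3. They were taken by name. For each gene the promoter was taken as 1000 bp upstream to 500 bp downstream of any annotated transcription start site (TSS), and the locus as the gene body with 50 kb on each side, in genome build GRCm38. Peaks of RFX2, which belongs to the Regulatory Factor X (RFX) transcription factors, were looked for in both, to ask whether its binding in testis reaches genes of a signalling pathway that depends on the cilium.

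In vertebrates Hedgehog signals pass through the primary cilium. Without ligand, the receptor PTCH1 keeps the transducer SMO out of the cilium, GPR161 keeps protein kinase A active there, and SUFU holds the GLI transcription factors in check. With ligand, SMO enters the cilium, the kinesin KIF7 and the GLI proteins gather at its tip, and GLI activators turn on targets that include Gli1 and Ptch1 themselves. In testis the ligand is Desert hedgehog (Dhh), known as a product of Sertoli cells that acts on Leydig and peritubular cells. RFX factors bind the X-box, an inverted repeat found in promoters of many genes for cilia.

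The data came from chromatin immunoprecipitation followed by sequencing (ChIP-seq) of wild type (WT) mouse testis, with 1 RFX2 ChIP and 1 input (chromatin without immunoprecipitation) in each of 2 experiments, 4 samples in all. The series' design text speaks of 2 independent mice. The labels give decapsulated testis at postnatal day 29 to 30 from a mixed background of C57BL/6, 129/Sv and FVB/N, and an RFX2 antibody from Santa Cruz Biotechnology. The study's text describes instead germ cells of younger mice, and the lists do not settle which applies. No RFX2 mutant ChIP was analysed here. Peak lists hold no expression, so the cell types in the tissue could not be checked against markers.

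All values rest on 3 deposited peak lists. The replicate 1 list held 39825 peaks and the replicate 2 list 21274, each with a score on a −log10 scale, and a higher score stands for stronger statistical evidence over input. The combined list held 2726 peaks, none with a −log10 p below 43.20, so a gene without a peak in it can still have weaker or less reproducible binding. Of peaks with a score under 10, 5.61% in replicate 1 and 26.4% in replicate 2 were met by the other replicate, against 74.0% and 98.9% of those with a score of 10 or more. Read depth is unknown, and the inputs entered only through the authors' peak calling.

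None of the 9 promoters held a combined peak. The exact 95% interval of 0 of 9 genes reaches 33.6% and covers counting error only, and the same rule called 5.26% of all protein-coding genes. Gli1 was the only member with a promoter peak in the replicate lists, and it had 1 in each. That is 1 of 9 genes (11.1%, interval 0.281 to 48.2), beside 9.05% of all genes with a promoter peak in both replicate lists, 13.98% in replicate 1 and 11.3% in replicate 2. In the replicate lists the members' share was thus near that of all genes.

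In the wider loci, 3 of the 9 genes (Dhh, Kif7 and Sufu) had a combined peak, 33.3% with an interval of 7.49 to 70.1, beside 24.4% of all genes. A replicated peak, which is a replicate 1 peak overlapped by a replicate 2 peak, was present in the loci of these genes and of Gli1, 4 of 9 (44.4%, 13.7 to 78.8) beside 45.7% of all genes. With a replicate list on its own, 8 of 9 loci held a peak in each list, beside 80.5% of all genes in replicate 1 and 67.96% in replicate 2. Only Ptch1 had none in replicate 1, and only Gli2 had none in replicate 2. Locus length matters for such counts, and the loci ran from 107 kb for Dhh to 367 kb for Gli3.

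**Figure D1:**
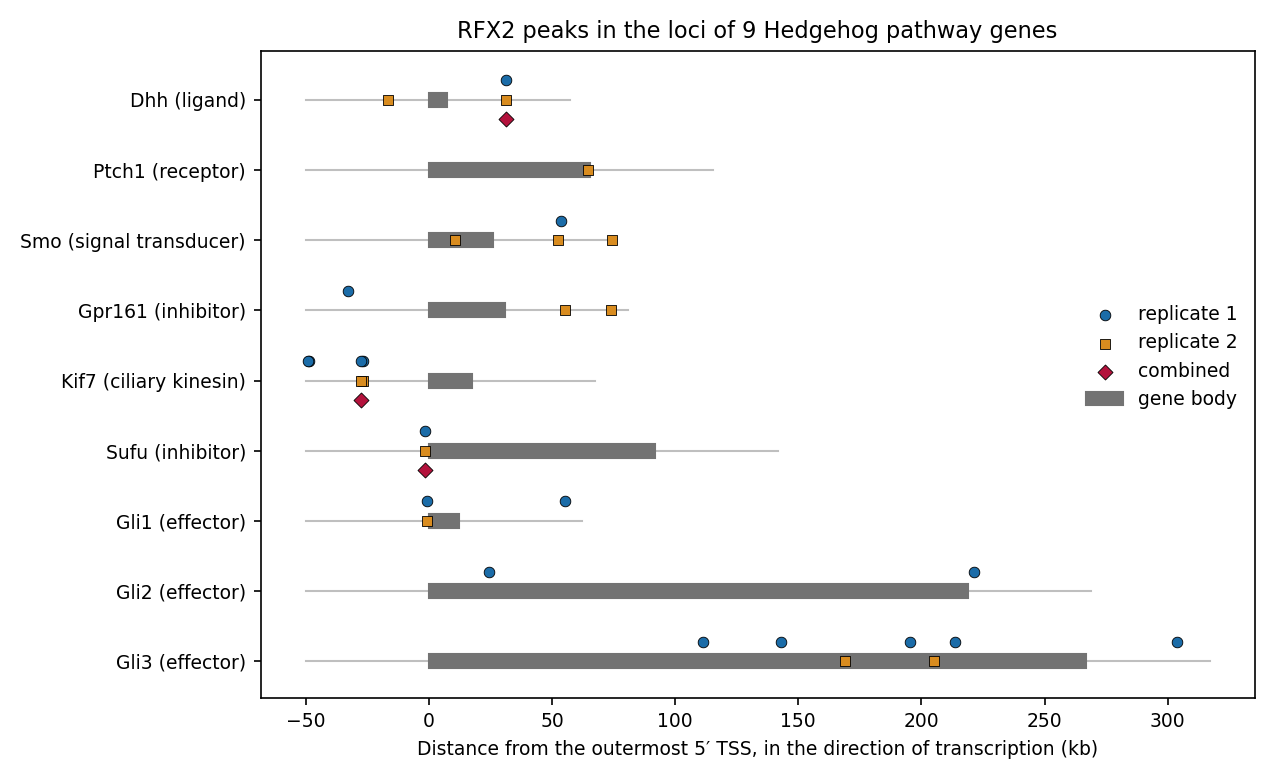
Each row is the locus of a gene with its role, drawn from 50 kb before to 50 kb after the gene body (dark bar), against the distance from its outermost 5′ TSS in kb. Symbols mark peaks of the replicate 1, replicate 2 and combined lists, and the 3 combined peaks lie outside the gene bodies, in the loci of Dhh, Kif7 and Sufu.

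The 3 combined peaks in the member loci are shown by sequence, since they are the strongest binding found near these genes. Sequences are from GRCm38, plus strand, 5′ to 3′. The X-box was taken as the palindrome of 14 bases that occurred in the largest number of 200-bp windows around the summits of combined peaks, where the summit is the point of highest coverage in a peak. It reads as follows, and was present without mismatch in 163 of 2726 windows.
X-box: GTTGCCATGGCAAC
For the combined peaks near Dhh and Sufu, 200 bp around the summit are given, at chr15:98867322-98867521 and chr19:46395109-46395308. Capitals mark the closest match to the X-box. For Dhh they mark instead a word with the outer bases of the X-box further apart, which was noticed after the sequence was seen and is described with that gene.
Dhh locus: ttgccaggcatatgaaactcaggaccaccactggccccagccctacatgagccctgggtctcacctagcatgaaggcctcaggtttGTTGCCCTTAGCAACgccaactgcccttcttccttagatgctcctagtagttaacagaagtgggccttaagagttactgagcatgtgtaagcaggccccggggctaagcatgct
Sufu locus: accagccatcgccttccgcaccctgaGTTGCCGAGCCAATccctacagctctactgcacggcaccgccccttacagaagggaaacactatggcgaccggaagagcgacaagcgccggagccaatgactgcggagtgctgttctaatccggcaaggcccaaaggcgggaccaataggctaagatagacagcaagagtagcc
For the other peaks, 30 bases around the closest match are given, at chr7:79743145-79743174 for Kif7, at chr10:127342688-127342717 for the Gli1 promoter and at chr10:127286830-127286859 for a peak at the far end of the Gli1 locus.
Kif7 locus: aagtggtaGTTACTAAGGCGACgccaagcc
Gli1 promoter: gaatctgtGTTACCATGGTGACtggacaca
Gli1 locus, replicate 1 only: ggtacagaGTTGCCATGGCAACagctttcc

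Dhh, the ligand (chr15:98891152-98898540, minus strand), had the strongest peak of any member. The combined peak lay at chr15:98866785-98868066, with a −log10 p of 256, rank 97 of 2726 peaks, and a fold enrichment of 39.1 over local background. Its score was 182 in replicate 1 (rank 169) and 70.0 in replicate 2 (rank 296), and both replicate peaks overlapped it. The peak is thus near the top of all 3 lists. It is not at the Dhh promoter: its summit lay 31.1 kb from the nearest Dhh TSS, downstream of the gene, within an intron of Kmt2d, a gene for a histone H3 lysine 4 methyltransferase, and 3761 bp downstream of the nearest Kmt2d TSS. A second peak in the locus, in an exon of Lmbr1l, had a score of 4.14 in replicate 2 and none in replicate 1.

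By the rule of at most 3 mismatches the Dhh-locus peak held no X-box, since the closest match over the whole peak had 5. The word in capitals in its sequence, GTTGCCCTTAGCAAC at chr15:98867408-98867422, has both outer arms of the palindrome, GTTGC and GCAAC, with 5 bases between them in place of 4. Its centre lay 7 bp from the summit. This word was noticed after the sequence was seen. Over all combined peaks, both arms without mismatch and 4 bases apart were present in 440 of 2726 summit windows (16.1%), 3 bases apart in 51 (1.87%) and 5 bases apart in 40 (1.47%). Any other distance from 0 to 9 bases was present in at most 2 windows. The arms come from the palindrome read in these same windows, and the 40 include that of the Dhh-locus peak itself. In windows 1000 bp to the right of the summits, distances of 3 and 4 bases were found in 0 windows and a distance of 5 bases in 1.

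Ptch1, the receptor (chr13:63508328-63573598, minus strand), had a single peak in its locus. It had a score of 5.95 in replicate 2, higher than 62.3% of that list, and lay in an exon 2.9 kb downstream of an internal TSS. Replicate 1 had no peak in the 165 kb of the locus, and the nearest combined summit was 547.1 kb away, farther than for 74.5% of genes.

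Smo, the signal transducer (chr6:29735503-29761365, plus strand), had 1 peak in replicate 1 and 3 in replicate 2, and none was replicated. The replicate 1 peak had a score of 7.27 and lay 53.3 kb downstream of a Smo TSS, in an intron of Ahcyl2, the neighbouring gene. The replicate 2 peaks had scores of 5.06 in a Smo intron, and 4.14 and 5.06 in introns of Ahcyl2. All 4 scores were under 10, and that of the replicate 1 peak was above 69.5% of its list. This peak held an X-box with 2 mismatches, shown within 30 bases at chr6:29788953-29788982.
Smo locus, replicate 1 only: gaattaaaGTAACCATGGCAACtattataa
The mismatches were T3A and G4A, where the base of the palindrome is given first, then its position from 1 at the 5′ end of the word as printed, then the base in the genome. The 156-bp replicate 2 peaks in Ahcyl2 did not reach this site.

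Gpr161, a receptor of the primary cilium that inhibits the pathway (chr1:165295789-165326745, plus strand), had 1 peak in replicate 1 and 2 in replicate 2, at different places. The replicate 1 peak, with a score of 8.28, lay 32.8 kb upstream of the gene. The replicate 2 peaks, with scores of 5.06 and 4.95, lay downstream in an exon and an intron of Dcaf6. The replicate 1 peak had the arms of the palindrome 3 bases apart, in a word of 13 bases at chr1:165263005-165263017 that was also noticed after the sequences were seen. It is shown within 30 bases at chr1:165262997-165263026.
Gpr161 locus, replicate 1 only: atgagttgGTTGCCTAGCAACcgggaattt

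Kif7, the ciliary kinesin (chr7:79698098-79715720, minus strand), had the most peaks with a partner. The combined peak at chr7:79742931-79743502 had a −log10 p of 75.5 (rank 1522) and a fold enrichment of 11.6, and the replicate scores were 55.8 (rank 1587) and 26.1 (rank 1266). It lay 27.4 kb upstream of Kif7 and met the promoters of Pex11a, a gene for a peroxisomal membrane protein, and Wdr93. These genes start close to each other in opposite directions, and the summit lay 2 bp upstream of a Wdr93 TSS. The closest match to the X-box, with 4 mismatches, was centred 1 bp from the summit.

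A second replicated peak lay beside it in an intron of Pex11a, with a score of 5.27 in replicate 1 and 5.06 in replicate 2. This peak also met the promoters of Pex11a and Wdr93, and its replicate 1 centre lay 491 bp downstream of a Pex11a TSS. Replicate 1 had 2 further peaks in an intron of Wdr93, with scores of 3.64 and 7.27, which replicate 2 did not have. No peak of any list lay in the Kif7 gene body or promoter.

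Sufu, the inhibitor that binds GLI proteins (chr19:46396896-46488804, plus strand), had the combined peak closest to a member TSS. It lay at chr19:46394873-46395453 with a −log10 p of 81.7 (rank 1371), a fold enrichment of 10.3, and replicate scores of 60.7 (rank 1433) and 21.6 (rank 1594). Its summit was 1687 bp upstream of the Sufu TSS, and its near edge lay 443 bp outside the promoter window. Only 5.55% of genes had a nearer combined summit. The peak was, however, in the promoter of Actr1a, which encodes an actin-related protein of dynactin, with its summit 489 bp inside that gene from an Actr1a TSS. Sufu and Actr1a are transcribed in opposite directions, and peaks do not show which of them a bound factor acts on. The closest match to the X-box had 4 mismatches (A7G, T8A, G10C and C14T) and lay 67 bp from the summit.

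Gli1, the effector that is itself a target of the pathway (chr10:127329882-127341974, minus strand), had the only replicated promoter peak. In replicate 1 it lay at chr10:127342511-127342820 with a score of 6.91, higher than 68.6% of that list. In replicate 2 it lay at chr10:127342594-127342749 with a score of 5.06, higher than 45.9% of the list. The centres were 691 and 697 bp upstream of the Gli1 TSS, so the positions in the replicates differed by 6 bp. The peak held an X-box with 3 mismatches (G4A, C11T and A12G), 729 bp upstream of the TSS.

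The Gli1 peak was weak among promoter peaks. Of 1985 genes with a promoter peak in both replicate lists, the median of the highest score was 38.9 in replicate 1 and 19.4 in replicate 2. The score of Gli1 was above that of 8.11% of them in replicate 1 and of 9.07% in replicate 2, and 74 genes (3.73%) were lower in both. The score of 5.06 is a value that 11.4% of the replicate 2 list shares, and 6 of the 14 replicate 2 peaks in the member loci had it.

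A stronger peak lay at the other end of the Gli1 locus, in replicate 1 only. It had a score of 16.8, above 86.8% of the list, and met the promoter of Mbd6, 877 bp upstream of a TSS. It was the only peak of a member locus that held the palindrome without mismatch, and replicate 2 had no peak there.

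Gli2 and Gli3, effectors with large genes (chr1:118834132-119053619, minus strand, and chr13:15463235-15730026, plus strand), had only peaks with a score under 10, and none replicated. Gli2 had 2 peaks in replicate 1, with scores of 3.70 beyond the 3′ end of the gene and 4.33 in an intron. Gli3 had 5 in replicate 1, with scores from 2.96 to 4.47, and 2 in replicate 2, with scores of 5.06 and 7.04, the latter above 73.2% of that list. All but 1 of the Gli3 peaks lay in its introns. These genes were also the members farthest from any combined summit, at 943.6 kb for Gli2 and 1573.3 kb for Gli3, farther than for 86.2% and 93.3% of genes.

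**Figure D2:**
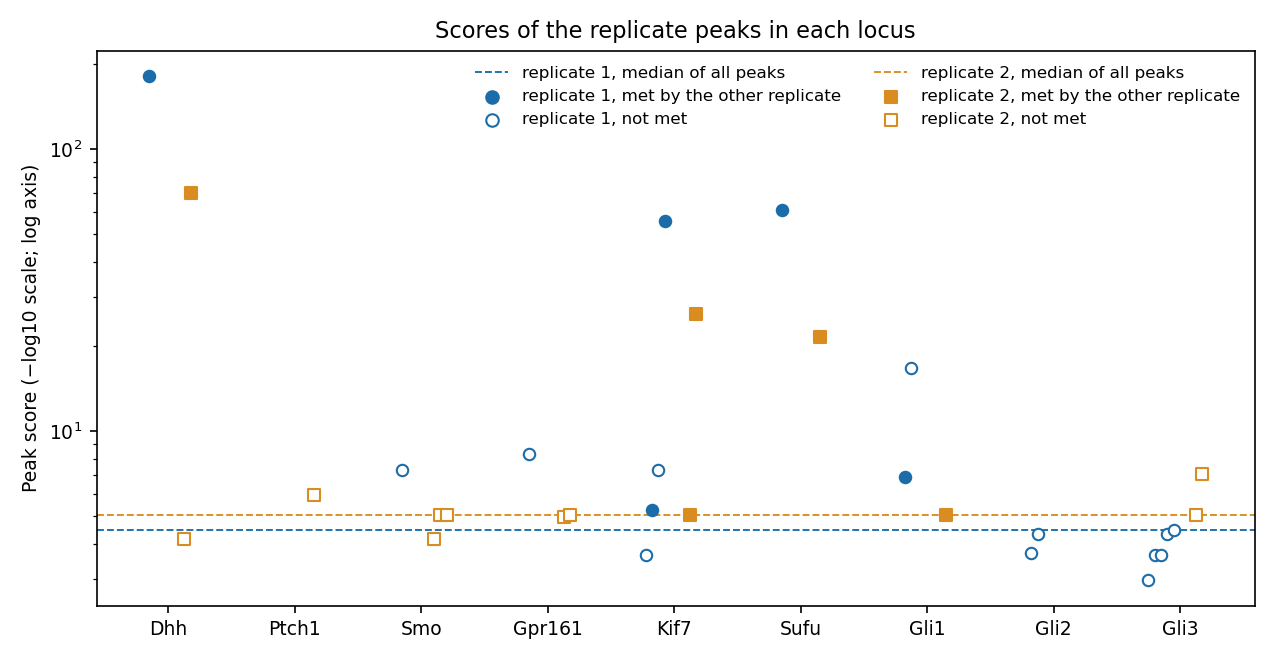
Points are the scores (−log10 scale, log axis) of all replicate 1 and replicate 2 peaks in each locus, filled where a peak of the other replicate overlapped, and dashed lines are the medians of the whole lists, 4.47 and 5.06. The filled points above 10 belong to Dhh, Kif7 and Sufu, and the peaks of Ptch1, Smo, Gpr161, Gli2 and Gli3 are all open and below 10.

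Over all loci, 13 of 17 replicate 1 peaks and 11 of 14 replicate 2 peaks had a score under 10. In the whole lists it was 31303 of 39825 and 17534 of 21274, which are similar shares. In the member loci 5 peaks of each list were met by the other replicate. Over the whole lists 20.2% of replicate 1 peaks and 39.2% of replicate 2 peaks were met. Gene bodies of members held 5 replicate 1 peaks, 4 replicate 2 peaks and 0 combined peaks. To allow for length, peaks were counted per Mb of locus, over 1.64 Mb in all for the members. Combined peaks were present at 1.83 per Mb (exact Poisson 95% interval 0.378 to 5.35), beside 1.37 per Mb over the loci of all genes. Replicate 1 had 10.4 per Mb (6.05 to 16.6) beside 16.3, and replicate 2 had 8.55 per Mb (4.67 to 14.3) beside 9.33. Only in replicate 1 did the value for all genes come close to the edge of the interval. The median distance from a member to the nearest combined summit was 158 kb, beside 205 kb over 21755 genes. Smo, Gpr161 and Gli1 lay in the middle of that range, at 153.9, 158.5 and 173.8 kb from the nearest combined summit.

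Matches to the X-box were then counted. Of the 5 replicated peaks in the member loci only that at the Gli1 promoter had a match with at most 3 mismatches (20.0%), beside 5588 of all 8060 replicated peaks (69.3%). With at most 4 mismatches the count was 4 of 5, beside 83.9%, so it rests on the limit set. The unreplicated peaks with matches in the Gli1 and Smo loci are not among these 5. The other unreplicated replicate 1 peaks of the member loci had 4 to 7 mismatches. How many of all unreplicated peaks hold such a match, or the spaced arms seen in the Gpr161 locus, was not counted. These words therefore have no background beside them. Of the member promoters themselves, read as sequence alone, again only that of Gli1 had a match (11.1%), beside 3859 of 21938 genes (17.6%) and 734 of the 1153 genes with a combined promoter peak (63.7%). Both strands were searched, and the palindrome was derived from the combined peaks, so that its high share among them is no independent result.

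The other genes of the pathway were described from a list of 33, in the order ligand and release, receptors, ciliary trafficking, and kinases and turnover. A combined peak was present in 5 of the 33 promoters (15.2%, interval 5.11 to 31.9, beside 5.26% of all genes), and a promoter peak in both replicate lists in 8 (24.2%, 11.1 to 42.3, beside 9.05%). None of the 5 ligand and release genes and none of the 6 receptors or co-receptors had either. The combined peaks were at 3 of 12 trafficking genes and 2 of 10 genes for kinases and turnover.

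The strongest was at Prkar1a, a regulatory subunit of protein kinase A, the kinase that marks GLI proteins for processing. The −log10 p was 160 (rank 435), and the scores were 99.2 in replicate 1 and 68.3 in replicate 2. The summit lay 43 bp upstream of a TSS and 1.5 kb from the outermost of the 4 annotated TSS. Prkaca, a catalytic subunit of the same kinase, had one of the lowest peaks of the combined list, with a −log10 p of 44.4 (rank 2639) and scores of 30.4 and 18.3. Its summit was 209 bp past the inner of its 2 annotated TSS and 4.1 kb from the outer. Prkaca is known to make a sperm-specific catalytic subunit from an alternative first exon. Whether the inner TSS is that of this form was not tested.

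The trafficking genes with a combined peak were Iqce, Efcab7 and Dzip1. Iqce and Efcab7 encode parts of the EVC complex, which holds a zone near the base of the cilium where SMO signals. Iqce had a −log10 p of 99.7, scores of 67.2 and 31.7 and a summit 7 bp from a TSS. Efcab7 had a −log10 p of 67.4, scores of 49.9 and 21.9 and a summit 6 bp from a TSS, in a peak that also met the promoter of Itgb3bp. Evc and Evc2, the other genes of that complex in the list, had no promoter peak in any list. Dzip1, needed for cilium formation and GLI turnover, had a −log10 p of 70.5 and scores of 52.3 and 30.1. Its summit lay 70 bp from a TSS and 2.4 kb from the outermost of its 10 annotated TSS. The closest matches to the X-box in the combined peaks of Iqce, Efcab7 and Prkaca had 2, 3 and 3 mismatches. Those at Prkar1a, with 1 mismatch (T8A), and at Dzip1, with 2 (C6T and A13G), are shown as examples. They lay at chr11:109650854-109650883 and chr14:118923082-118923111.
Prkar1a promoter: cctttaagGTTGCCAAGGCAACcgccctgg
Dzip1 promoter: tccaggacGTTGCTATGGCAGCgccctgcc

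Tulp3, Stk36 and Btrc had a promoter peak in both replicate lists and not in the combined list. Tulp3, which brings GPR161 into the cilium, had scores of 10.2 in replicate 1 and 6.68 in replicate 2. Stk36, the relative of the fly kinase Fused, had scores of 26.9 and 13.9 in a peak shared with the promoter of Rnf25. Btrc, the substrate receptor of a ubiquitin ligase that acts on GLI proteins, had scores of 27.3 and 7.57. All of these exceeded the scores of the Gli1 promoter peak, 6.91 and 5.06. In the replicate 1 peaks of Tulp3, Stk36 and Btrc the closest matches to the X-box had 6, 5 and 5 mismatches.

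**Figure D3:**
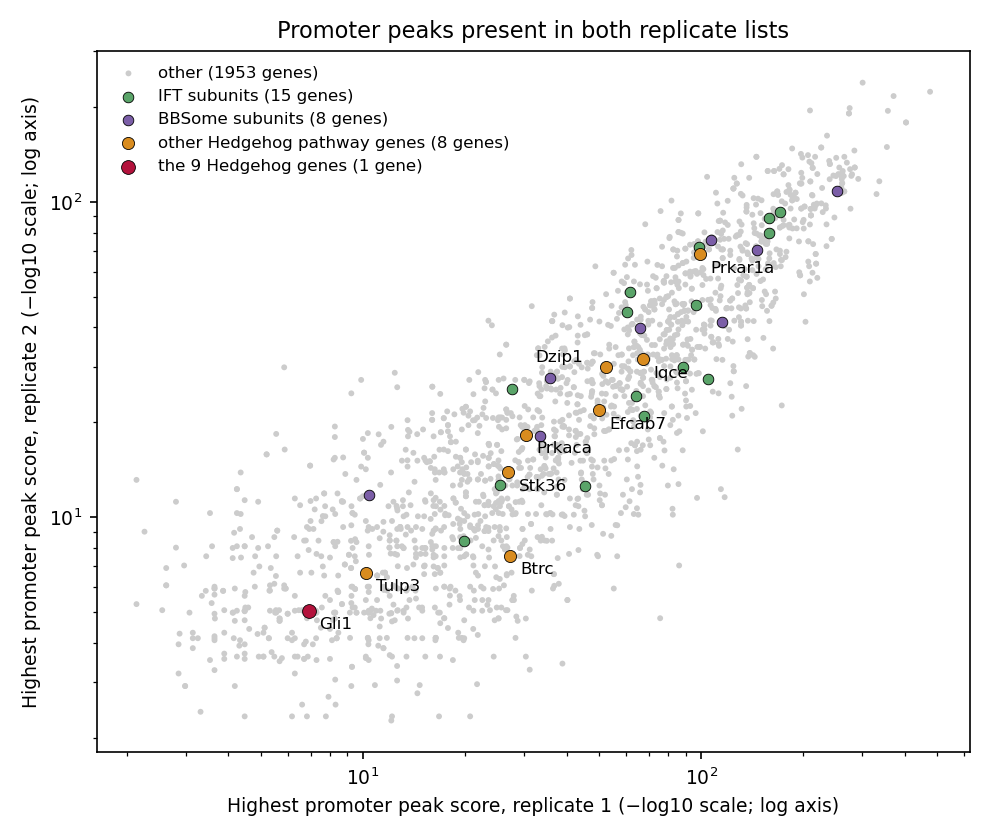
Each point is a gene with a promoter peak in both replicate lists, at its highest promoter score in replicate 1 (x) and replicate 2 (y), both on log axes. Gli1 (6.91 and 5.06) is the only one of the 9 genes and lies at the low end, whereas Prkar1a (99.2 and 68.3) lies among the subunits of the ciliary transport complexes.

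Genes for the transport machinery of the cilium were set beside the members by the same rule. Subunits of intraflagellar transport (IFT), which carries cargo along the cilium, had a combined promoter peak in 13 of 21 genes (61.9%, 38.4 to 81.9), and 15 had a promoter peak in both replicate lists. Subunits of the BBSome, which moves membrane proteins such as GPR161 and SMO out of the cilium, had a combined promoter peak in 7 of 8 genes (87.5%, 47.3 to 99.7), and 8 in both replicate lists. Examples with the highest −log10 p were Bbs1 at 304, Ttc26 at 218 and Ift122 at 207. In the combined list the interval of the 9 Hedgehog genes was 0 to 33.6%, and 5.26% of all genes had such a peak. With a promoter peak in both replicate lists it was 0.281 to 48.2%, beside 9.05% of all genes. That of the IFT genes was then 47.8 to 88.7% and that of the BBSome genes 63.1 to 100%. No test of the difference between the sets was made. The study had already reported RFX2 binding at many IFT and Bbs genes, so the contrast was partly known in advance. The lists were also compiled with earlier results of these data known. Of 1003 combined promoter peaks, 161 (16.1%) belonged to several genes, so that genes are not independent.

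**Figure D4:**
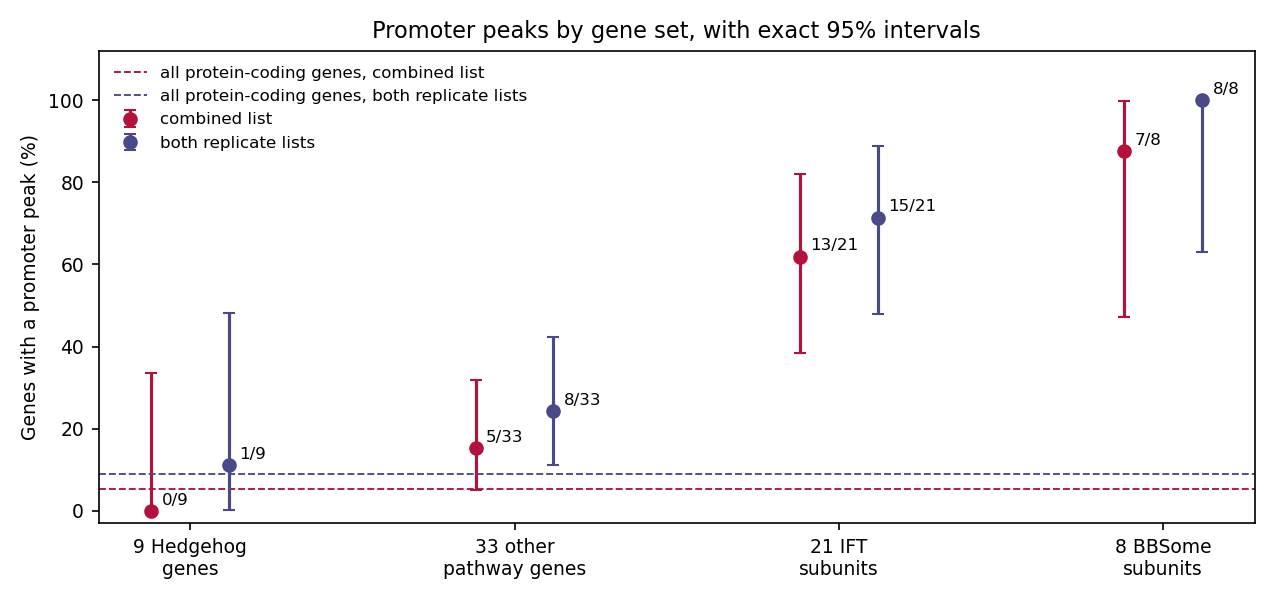
Points are the percentage of genes in each set with a promoter peak in the combined list or in both replicate lists, bars are exact 95% intervals (counting error only), and dashed lines are the shares of all protein-coding genes, 5.26% and 9.05%. The 9 Hedgehog genes (0 and 1 of 9) sit near these lines, and the IFT (13 and 15 of 21) and BBSome subunits (7 and 8 of 8) above them.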

How the data were processed

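RFX2 ChIP-seq peak lists of 2 WT testis replicates were analysed. Per the labels and the study's methods, the authors mapped reads with Bowtie 0.12.7 to GRCm38 (Ensembl 70), discarded reads with several locations, and called peaks against input with MACS2 2.0.10.20130520. Human reads were removed from a second run of replicate 2. The deposited replicate lists hold a −log10 value for each peak, and whether it is a p-value or q-value is not stated. The deposited combined list gives a score, a fold enrichment (ratio), −log10 p, −log10 q and the summit. Its score was −log10 p times 10, cut to a whole number, in 100% of peaks. How it was made is not stated. The study's methods describe a filter on the irreproducible discovery rate (IDR) between the replicates, and the list may be its result or a call on pooled reads kept to the top ranks. Either way it shares reads with the replicates, and its overlap with them is no independent replication. No read counts are given, so depth is unknown.

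Genes and TSS came from GENCODE mouse release 21, sequence from GRCm38.p6, which shares the coordinates. Peaks were assigned at an overlap of at least 1 bp with Python 3.11.15, numpy 2.4.6, scipy 1.17.1 and pysam 0.24.0. Functions were tested on simulated peaks. No test between groups was run, since the samples form 1 condition. Intervals are exact (Clopper-Pearson for shares, Poisson for densities) at 95%. Members and lists were chosen with earlier results of these data known. Beside the 9 members, pathway, IFT and BBSome genes were named if they had a promoter peak in the combined list or in both replicate lists, and other genes if a combined or replicated peak of a member locus met their promoter or lay nearest to their TSS. Ahcyl2, Dcaf6, Lmbr1l, Mbd6, Rnf25 and Itgb3bp, and Evc and Evc2, were named after their values were seen. Alternatives changed the promoter window, the TSS, the flanks, the overlap, the list and the number of mismatches.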

Additional observations from a re-analysis of the deposited data

How the results depend on the processing

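The absence of combined promoter peaks at the 9 genes held with a window of 500 bp upstream to 50 bp downstream, with the outermost TSS, with the summit as position and in the top 50% of the list. With 2500 bp on each side 1 gene, Sufu, had a combined promoter peak (5.96% of all genes), and 2 genes, Sufu and Gli1, had one in both replicates (11.8%). The latter count was 0 with the narrow window (7.94% of all genes) and 0 with both lists at the length of the combined list (4.56%), and without either replicate it stayed at 1. Genes with a combined locus peak numbered 1 with flanks of 10 kb (Sufu, beside 12.1% of all genes), 1 without peaks in the promoter of another gene (Dhh, beside 14.5%) and 1 in the top 50% of the list (Dhh, beside 14.7%). Genes with a replicated locus peak numbered 2 with flanks of 10 kb (beside 24.2% of all genes), 8 with 100 kb (beside 60.9%) and 2 without peaks in other promoters (beside 34.2%). In the list of replicate 2 alone (without replicate 1) they numbered 8, beside 67.96% of all genes. In that of replicate 1 alone (without replicate 2) they also numbered 8, beside 80.5%. Member peaks with an X-box numbered 0 of 5 with at most 2 mismatches and 4 of 5 with at most 4, beside 47.7% and 83.9% of all replicated peaks. The other pathway genes with a combined promoter peak, 5 of 33 in the main count, numbered 2 with the outermost TSS (Iqce and Efcab7, beside 4.43% of all genes). They also numbered 2 in the top 50% of the list (Iqce and Prkar1a, beside 3.42%). The density of combined peaks moved between 0.611 and 1.97 per Mb, within its wide interval, but its order against all genes changed. With flanks of 100 kb it was 1.97 beside 1.31 for all genes. It was 1.09 beside 1.52 with 10 kb and 0.611 beside 0.714 in the top 50% of the list. In all, 20 of the recomputed values stayed within 1.5 times the main value or within its interval and 16 did not. No paired analysis was possible because the inputs are not analysed here and the ChIP samples form 1 group. With 2 replicates and no depth, weak peaks such as that of Gli1 cannot be given a spread.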
